A study of Mus musculus with 3 samples.

Results

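The transcription factors described here are 10 genes that act in the neural crest or in the melanocyte lineage that arises from it. They were listed by name, from 22698 genes in the files, by a rule that holds no level but was set with earlier results of these data known. They are the paired box genes *Pax3* and *Pax7*, the forkhead gene *Foxd3*, the msh homeobox genes *Msx1* and *Msx2*, the T-box genes *Tbx2*, *Tbx3* and *Tbx15*, the interferon regulatory factor gene *Irf4*, and the POU domain gene *Pou3f2*. RNA-seq had been performed on untreated melan-a cells, an immortalized mouse melanocyte line, in 3 bioreplicates that are labelled 1, 3 and 4. All 3 samples have the C57BL/6J strain background and come, per the labels, from Ink4a-ARF-/- mice. The cells grew at 37°C in RPMI 1640 with 10% fetal bovine serum, 200 nM 12-O-tetradecanoylphorbol 13-acetate (TPA, a phorbol ester that activates protein kinase C) and 200 pM cholera toxin, which raises cyclic AMP. There was 1 condition and 1 line, so the values describe melan-a cells in this medium and no group could be compared with another.

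These factors belong to the network that takes a neural crest cell to a pigment cell. PAX3, together with SOX10, activates the melanocyte regulator gene *Mitf*, whereas FOXD3 keeps crest cells undifferentiated and represses *Mitf* in the neural crest. PAX7 is the close paralogue of PAX3 and is best known from muscle stem cells, while MSX1 and MSX2 act at the border of the neural plate. TBX2 and TBX3 are repressors that hold back the cell cycle inhibitor genes *Cdkn1a* and *Cdkn2a*, TBX15 patterns coat colour between back and belly through the dermis, IRF4 cooperates with MITF at the *Tyr* gene, and POU3F2 (BRN2) is a neuronal factor that is also active in melanoma cells.

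For orientation, the start regions of the 2 factors that were above 1 FPKM and had an entry in the RefSeq promoter table (build GRCm38.p6) are shown. Each window runs from 250 bases before to 50 bases after the start of the gene. They lie at chr4:99656049-99656348 on the plus strand for *Foxd3* and at chr13:30748983-30749282 on the plus strand for *Irf4*. Capitals mark letters found in a search of both strands for GCCNNNGGC, the core of the AP-2 site bound by TFAP2A, for CACGTG and CATGTG, the E-boxes bound by MITF, and for GGTGTGA, a T-box half-site.
Foxd3: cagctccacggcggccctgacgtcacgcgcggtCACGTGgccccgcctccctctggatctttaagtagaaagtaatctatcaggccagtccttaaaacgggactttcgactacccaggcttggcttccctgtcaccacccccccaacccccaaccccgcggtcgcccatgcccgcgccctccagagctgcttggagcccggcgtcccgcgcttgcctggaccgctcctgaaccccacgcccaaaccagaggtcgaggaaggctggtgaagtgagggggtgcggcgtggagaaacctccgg
Irf4: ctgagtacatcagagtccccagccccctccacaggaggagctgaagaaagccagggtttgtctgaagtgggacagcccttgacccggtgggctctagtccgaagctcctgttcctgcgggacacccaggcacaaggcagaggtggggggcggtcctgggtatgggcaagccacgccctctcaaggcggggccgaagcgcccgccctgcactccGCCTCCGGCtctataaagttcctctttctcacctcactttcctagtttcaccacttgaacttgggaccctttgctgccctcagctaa
The *Foxd3* window held CACGTG once, at position -217 from the start, and the *Irf4* window held the AP-2 core once, as GCCTCCGGC at position -37. The entries of *Pax7*, *Msx1*, *Msx2* and *Pou3f2* held none of these letters. *Pax3*, *Tbx2*, *Tbx3* and *Tbx15* had no entry. Among all 32851 windows in the table, 16.6% held GCCNNNGGC, 7.15% held CACGTG, 14.2% held CATGTG and 3.98% held GGTGTGA. CG dinucleotides numbered 25 in the *Foxd3* window, 11 in that of *Irf4*, 29 in *Msx1*, 24 in *Pou3f2*, 22 in *Msx2* and 17 in *Pax7*, where the median of all windows was 7. The counts lay between percentile 58.6 (*Irf4*) and percentile 87.1 (*Msx1*) of all windows. A match is a run of letters and not a site that was shown to be bound.

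The files give FPKM, read numbers divided by gene length and library size, after the authors had scaled the libraries to each other. The scaled library size, estimated from genes whose FPKM fall on whole reads, was 53900000 reads for the sample labelled 1, 47000000 for 3 and 66200000 for 4. The labelled cell type had its markers, since 14 of 15 melanocyte genes were above 1 FPKM in every replicate, led by *Tyrp1* (mean 3144 FPKM), *Dct* (1412) and *Mlana* (578). Of 6 keratinocyte genes none was above 1 FPKM and 3 were listed at 0, and the same held for 6 leukocyte genes (4 at 0) and 6 skeletal muscle genes (1 at 0). *Krt10* (0.490 FPKM), *Krt5* (0.0233), *Krt14* (0.010), *Cd79a* (0.0567), *Cd74* (0.0467), *Ckm* (0.0933), *Des* (0.0867) and *Myod1* (0.040) were the highest genes of their lists. The sums over each list ranged from 0.36 to 0.70 FPKM for keratinocyte, 0.05 to 0.16 for leukocyte and 0.16 to 0.36 for muscle genes. Of 6 fibroblast genes only *Col1a1* passed, at 1.54 FPKM, and of 6 neuronal genes only *Tubb3*, at 216 FPKM, with *Snap25* at 0. Next in these lists were *Col3a1* (0.107 FPKM), *Pdgfra* (0.0767), *Syp* (0.157) and *Elavl3* (0.00667). The sum over the fibroblast list was 1.61 to 1.95 FPKM. The glial list had 4 of 6 genes above 1 FPKM, among them *S100b* (70.7 FPKM). In RNA of whole cultures, fewer cells of a type and less RNA per cell cannot be told apart.

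Of the 10 factors, 5 were above 1 FPKM in every replicate, namely *Tbx2*, *Pax3*, *Foxd3*, *Tbx3* and *Irf4*. This threshold was passed by 44.1% of all genes in the files. That share is the background for each count of genes above 1 FPKM given here. The other 5, *Msx1*, *Pou3f2*, *Tbx15*, *Msx2* and *Pax7*, were below it in every replicate, and none of the 10 was listed at 0 in all replicates, as 31.4% of all genes were. The median of the 10 means was 1.14 FPKM, against 0.277 FPKM over all genes. At 0.1 FPKM 7 factors passed, against 52.3% of all genes, and at 5 FPKM 3 passed, against 30.8%. The order of the 10 levels was the same in each replicate.

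**Figure D1:**
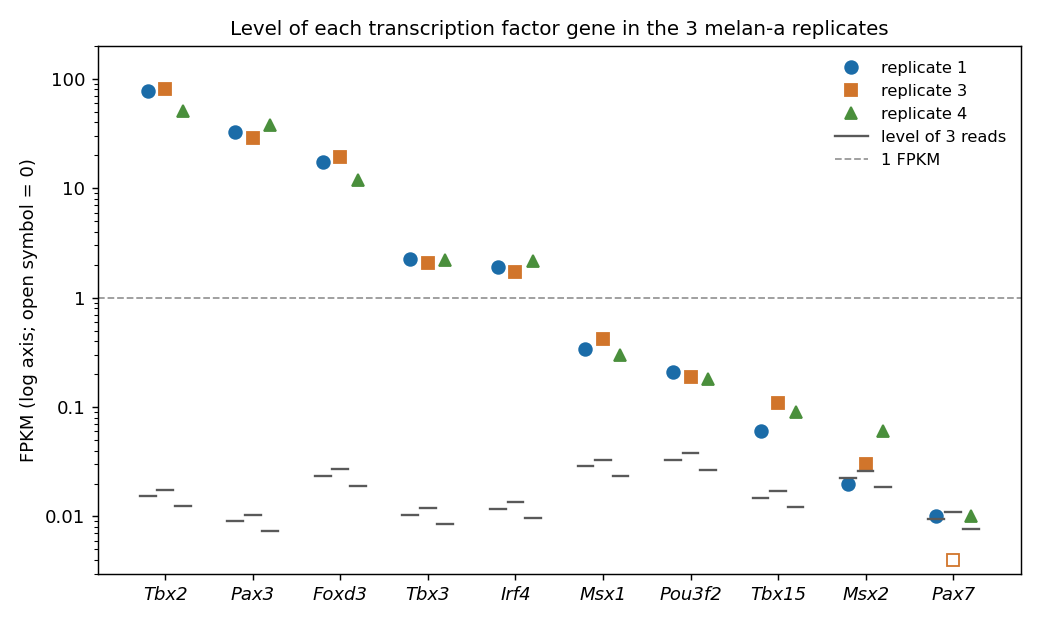
FPKM of each factor (vertical axis, log scale) in replicates 1, 3 and 4, in order of the mean, with short bars at the level of 3 reads and a dashed line at 1 FPKM; the open symbol is a value of 0. *Tbx2*, *Pax3* and *Foxd3* stand above 10 FPKM, *Tbx3* and *Irf4* lie close together near 2 FPKM, and *Pax7* is near the level of 3 reads in replicates 1 and 4 and at 0 in replicate 3.

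*Tbx2* was the highest of the 10. The gene (ENSMUSG00000000093, chromosome 11, bases 85646053 to 85655450 of mm9, the build of all gene positions given here, plus strand) has 1 annotated transcript with 7 exons. Replicates 1, 3 and 4 had 77.34, 80.51 and 50.46 FPKM. Replicate 4 was the low one, and the mean was 69.4 FPKM ± 16.5 (SD, n = 3), at rank 934 of 22698 genes. About 12112 reads stood behind the lowest value, whose 95% Poisson interval for counting error, 49.6 to 51.4 FPKM, was far from that of replicate 3, 79.2 to 81.9 FPKM. Among the listed genes of the network, *Tyr*, which encodes the key enzyme of melanin synthesis, had the nearest mean, 68.7 FPKM ± 8.30 (SD, n = 3).

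The other T-box genes were far below *Tbx2*, which was 34.5, 38.5 and 22.8 times *Tbx3* in replicates 1, 3 and 4. *Tbx3* (ENSMUSG00000018604, chromosome 5 from 120120678 to 120134733, plus strand) had 2.24, 2.09 and 2.21 FPKM in replicates 1, 3 and 4, the smallest relative spread of the 5 factors above 1 FPKM (coefficient of variation 3.64%). An opposite-strand gene, Gm2301, overlaps 2.14% of its exon bases, and *Sox5* had the nearest mean among the listed genes, 2.14 FPKM. On the log2(FPKM + 1) scale *Tbx2* exceeded *Tbx3* by 4.44 ± 0.38 (SD, n = 3), in 3 of 3 libraries. *Tbx15* (ENSMUSG00000027868, chromosome 3 from 99044304 to 99158182, plus strand) had 0.06, 0.11 and 0.09 FPKM, from about 12, 19 and 22 reads. *Tbx3* was higher than *Tbx15* by 1.55 ± 0.07 on the same scale (SD, n = 3). Of the 17 genes of the T-box family, 3 were above 1 FPKM in every replicate and 6 were listed at 0 in all. Besides *Tbx2* and *Tbx3*, the gene above 1 FPKM was *Mga*, a large protein with both a T-box and a MAX-binding domain, at 2.89 FPKM ± 0.978 (SD, n = 3). *Tbx2* made up 93.8%, 94.8% and 88.6% of the FPKM summed over the family in replicates 1, 3 and 4.

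The cell cycle inhibitor gene *Cdkn1a*, a target that TBX2 and TBX3 repress in other cells, had 314.15, 381.84 and 273.09 FPKM, at rank 135. *Cdkn2a*, the other such target, was read at 19.24, 16.49 and 24.32 FPKM, although the labels give the line as derived from Ink4a-ARF-/- mice. A value for the whole gene does not show from which exons the reads come, so it does not check the deletion. *Cdh1*, the epithelial cadherin gene that both factors can repress, was near 0, with 0.03, 0.05 and 0.05 FPKM.

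*Pax3* (ENSMUSG00000004872) occupies bases 78097842 to 78193709 of chromosome 1, minus strand. It was read at 32.49, 28.61 and 38.27 FPKM in replicates 1, 3 and 4. The mean was 33.1 FPKM ± 4.86 (SD, n = 3), at rank 2071. In contrast to *Tbx2*, replicate 4 was the highest. Of the listed genes *Yap1*, the gene of a coactivator in the Hippo pathway, was nearest at 30.3 FPKM ± 4.24 (SD, n = 3). *Pax7* (ENSMUSG00000028736, chromosome 4 from 139292977 to 139389445, minus strand) had 0.01, 0 and 0.01 FPKM. These values come to about 3, 0 and 4 reads, at the limit of what the depth and the rounding to 2 decimals can show. The rounding alone allows 1.58 to 4.74, 0 to 1.38 and 1.94 to 5.82 reads in replicates 1, 3 and 4. On the log2(FPKM + 1) scale the 2 paralogues differed by 5.07 ± 0.20 (SD, n = 3). *Pax3* was the only gene of the 9 in the PAX family above 1 FPKM and made up 98.2% to 98.6% of the family's summed FPKM. Next came *Pax5*, a B cell factor, at 0.490 FPKM ± 0.0755 (SD, n = 3), while 4 PAX genes were listed at 0 in all replicates. 

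*Foxd3*, a single-exon gene on the plus strand of chromosome 4 (ENSMUSG00000067261, 99322990 to 99325362), was read at 17.28, 19.21 and 11.79 FPKM in the same order of replicates. As for *Tbx2*, replicate 4 was the low one, and the mean was 16.1 FPKM ± 3.85 (SD, n = 3) at rank 3862. A gene annotated on the same strand, BX005053.1, overlaps 3.75% of the *Foxd3* exon. *Foxd3* held 92.8% to 93.5% of the FPKM summed over the 4 FOXD genes, and *Foxd2* was second with 1.18, 1.35 and 0.87 FPKM. The nearest of the listed genes was the histone deacetylase gene *Hdac2*, at 16.1 FPKM ± 2.03 (SD, n = 3).

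*Irf4* (ENSMUSG00000021356, chromosome 13 from 30841095 to 30858796, plus strand) had 1.89, 1.71 and 2.15 FPKM, with a mean of 1.92 FPKM ± 0.221 (SD, n = 3) at rank 9402. Its rank by mean was 5 of 9 genes in its family. *Irf3*, *Irf2*, *Irf9* and *Irf1*, which serve interferon responses in most cell types, were above it at 20.9, 13.6, 8.96 and 6.16 FPKM. The ratio of *Irf3* to *Irf4* was 10.6, 13.3 and 9.31 in replicates 1, 3 and 4. Among genes for factors that bind DNA with IRF4 in blood cells, *Batf3* had 0.91, 0.72 and 0.70 FPKM and *Spi1* had 0.04, 0.08 and 0 FPKM. *Batf* and *Ikzf1* were listed at 0 in all replicates.

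*Msx1*, *Msx2* and *Pou3f2* were below 1 FPKM in every replicate. *Msx1* (ENSMUSG00000048450, chromosome 5 from 38211724 to 38215822, minus strand) had 0.34, 0.42 and 0.30 FPKM from about 35, 38 and 38 reads, above the level of 3 reads in every replicate. *Msx2* (ENSMUSG00000021469, chromosome 13 from 53562250 to 53568443, minus strand) had 0.02, 0.03 and 0.06 FPKM from about 3, 3 and 10 reads. The 2 paralogues differed by 0.38 ± 0.08 on the log2(FPKM + 1) scale (SD, n = 3), and this scale understates the difference of genes at such low levels. *Dlx1* and *Dlx2*, homeobox genes of the crest and forebrain, were the highest of the 9 MSX and DLX genes, at 0.913 and 0.697 FPKM. *Pou3f2* (ENSMUSG00000052621, chromosome 4 from 22413791 to 22415480, minus strand) had 0.21, 0.19 and 0.18 FPKM from about 19, 15 and 20 reads. Of 14 POU genes, *Pou6f1* (3.80 FPKM) and *Pou2f1* (1.33 FPKM), the widely expressed OCT1 gene, were above 1 FPKM, and 4 were listed at 0 in all replicates.

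**Figure D2:**
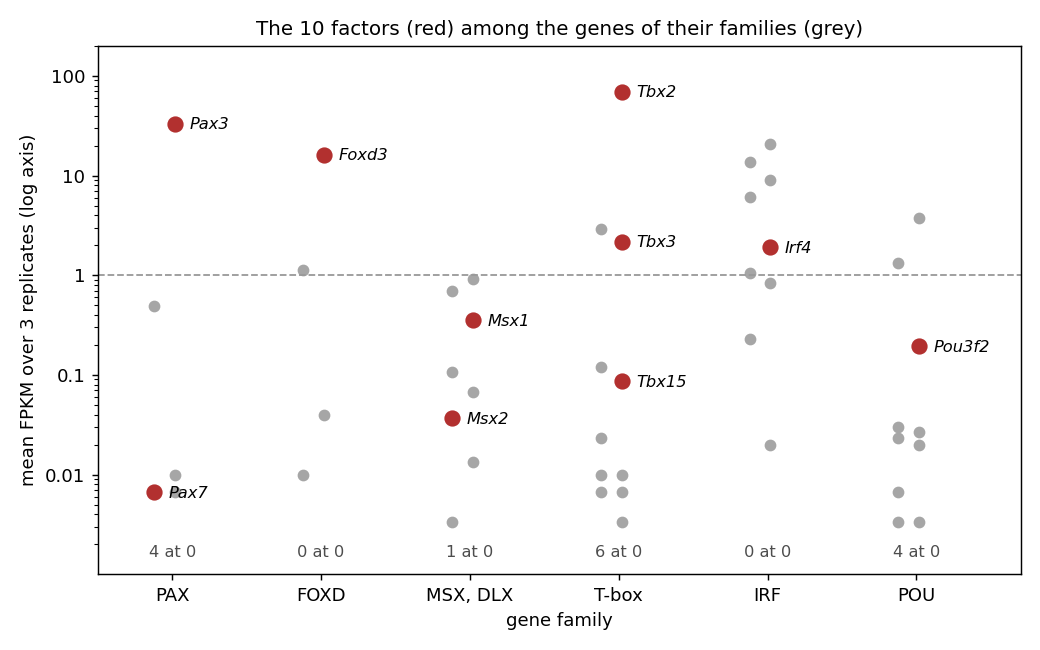
Mean FPKM over the 3 replicates (vertical axis, log scale) of every gene in the 6 families, with the 10 factors in red and their relatives in grey; the number of genes listed at 0 in all replicates is given at the foot. *Pax3*, *Foxd3* and *Tbx2* each stand more than 10 times above the next gene of their family, while *Irf4* ranks 5 of 9 and *Pou3f2* 3 of 14.

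Levels were compared for the 9 neighbouring pairs in the order of the 10 means and for 5 pairs of paralogues. The neighbours and their direction were set by the same means, so their values describe the order and are no separate evidence of it. The ranges of the 3 replicates did not overlap in 12 of the 14 comparisons. The exact permutation test of 3 values against 3, two-sided, gave p = 0.1 for each of the 12, which is the smallest this design allows, so no comparison could pass 0.05 (adjusted p = 0.117 by Benjamini-Hochberg over the 14 exact tests). These p-values measure only the spread between the 3 samples of 1 line. *Tbx3* and *Irf4* overlapped, as did *Tbx15* and *Msx2* (exact permutation p = 0.2 for both, adjusted 0.2). *Tbx3* was above *Irf4* in 3 of 3 libraries, by 0.13 ± 0.09 on the log2(FPKM + 1) scale (SD, n = 3). Within libraries the higher gene was above the lower one in 3 of 3 for all 14 pairs, where an exact sign-flip test gave p = 0.25, the smallest possible. In replicate 4 the 95% counting intervals of *Tbx3* and *Irf4* overlapped, 2.06 to 2.37 FPKM and 1.99 to 2.32 FPKM. Among the lowest neighbours, intervals overlapped in 3 of 3 replicates for *Msx1* and *Pou3f2* and for *Tbx15* and *Msx2*, and in 2 of 3 for *Pou3f2* and *Tbx15* and for *Msx2* and *Pax7*. They overlapped in no replicate for the other 4 neighbouring pairs and the 5 pairs of paralogues. The largest step between neighbours was from *Foxd3* to *Tbx3*, a log2 difference of 2.40 ± 0.37 (SD, n = 3).

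**Figure D3:**
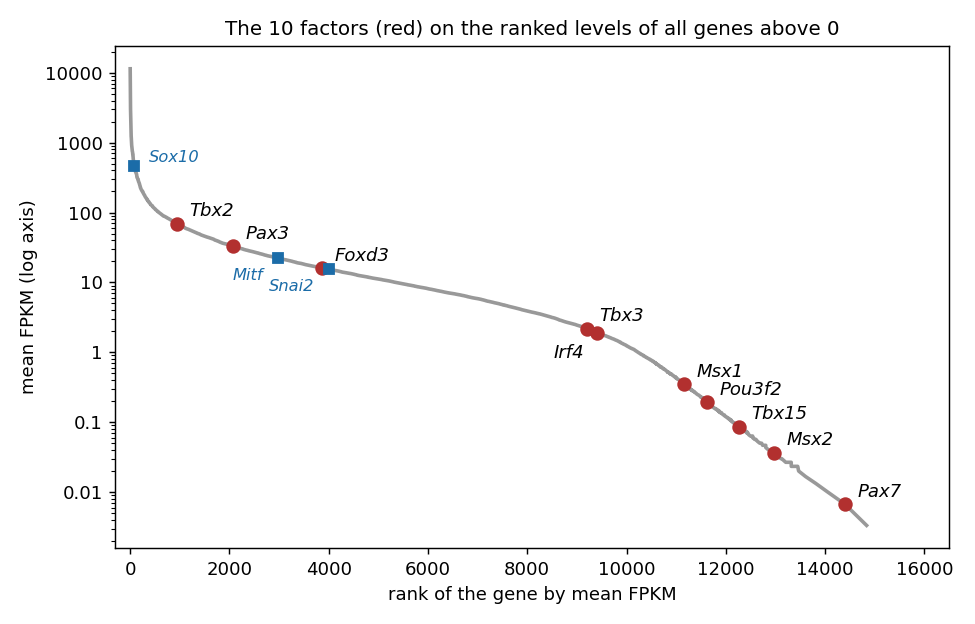
Mean FPKM (vertical axis, log scale) against the rank of each gene by mean FPKM (grey line, genes above 0), with the 10 factors in red and *Sox10*, *Mitf* and *Snai2* in blue. The factors spread over nearly the whole curve, from *Tbx2* at rank 934 to *Pax7* at rank 14404, with a gap between *Foxd3* at 3862 and *Tbx3* at 9196.

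Beside other regulators of the lineage, *Pax3* was read in each library above *Mitf* (22.27, 17.40 and 26.77 FPKM), by ratios of 1.46, 1.64 and 1.43. *Tbx2* was also above *Mitf* in 3 of 3 libraries, by 3.47, 4.63 and 1.88 times. *Foxd3* was below *Mitf* in replicates 1 and 4 (ratios 0.776 and 0.440) and above it in replicate 3 (1.10), so the order of these 2 genes was not stable between replicates. *Sox10*, the highest of 26 neural plate border and neural crest factors at 468 FPKM ± 85.7 (SD, n = 3), was 9.71 to 18.7 times above *Pax3*. *Tfap2a*, the gene at the centre of the study, was close to *Pax3*, with ratios of 1.14, 1.25 and 1.01. Ratios between genes depend on the gene length behind the FPKM, which is not known here, so small ratios are uncertain. Of those 26 factors 13 (50%) were above 1 FPKM in every replicate, near the 44.1% of all genes. Among them were *Id3* (88.4 FPKM) and *Id2* (80.7 FPKM), inhibitors of basic helix-loop-helix factors. At the other end *Zic1*, *Zic2*, *Twist1* and *Dlx6* were among those listed at 0.

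Genes for proteins that work with these factors were above 1 FPKM in 17 of 22 cases (77.3%), against 44.1% of all genes. The list was chosen with earlier results of these data known and includes *Sox10*, also a listed melanocyte gene. Its share is therefore no result about the factors. Besides *Sox10*, the list was led by the corepressor gene *Trim28* (90.3 FPKM ± 17.7, SD, n = 3), which binds PAX3, and by *Wwtr1* (58.6 FPKM ± 0.255, SD, n = 3), the gene of the PAX3 coactivator TAZ. Of 14 reported target genes 11 (78.6%) were above 1 FPKM, against 44.1% of all genes. The target list shares genes with the melanocyte list, among them *Tyrp1*, *Dct*, *Tyr* and *Mitf*. It also holds genes that the factors can repress, such as *Cdkn1a*. This share is therefore no result about the factors either. *Kit* had 0.67, 0.59 and 0.78 FPKM, and *Ret*, a PAX3 target in the enteric crest, had 0.03, 0.03 and 0.01 FPKM. These 2 and *Cdh1* were the targets that stayed below 1 FPKM.

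Among the factors above 1 FPKM, those that were lower in replicate 4 than in replicate 3 have GC-rich transcripts. The log2 ratio of replicate 3 to replicate 4 was 0.67 for *Tbx2* (63.2% GC) and 0.70 for *Foxd3* (64.2% GC). It was -0.42 for *Pax3* (48.5% GC), -0.33 for *Irf4* (47.9% GC) and -0.08 for *Tbx3* (54.2% GC). Deciles of GC content were set over the 10006 genes above 1 FPKM in every replicate that had a GC value. In the highest decile, which holds *Tbx2* and *Foxd3*, the median ratio was 0.52 with quartiles of 0.35 and 0.66 (1001 genes). The decile of *Pax3* and *Irf4* had a median of -0.17 with quartiles of -0.36 and -0.01, and that of *Tbx3* had a median of 0.19, above the value of *Tbx3* itself. The part of GC content in the spread of these factors was not tested. The ratio of *Tbx2* to *Foxd3* was 4.48, 4.19 and 4.28 in replicates 1, 3 and 4. That of *Pax3* to *Irf4* was 17.2, 16.7 and 17.8. The ratio of *Tbx2* to *Pax3* ranged from 1.32 in replicate 4 to 2.81 in replicate 3. What sets the spread of these ratios was not tested. The median coefficient of variation of the 5 factors was 14.7%, against 11.4% for all genes above 1 FPKM. For the factors it was 20.4% without replicate 1, 11.6% without replicate 3 and 7.07% without replicate 4. These values rest on fewer replicates, and no value for all genes stands beside them.

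**Figure D4:**
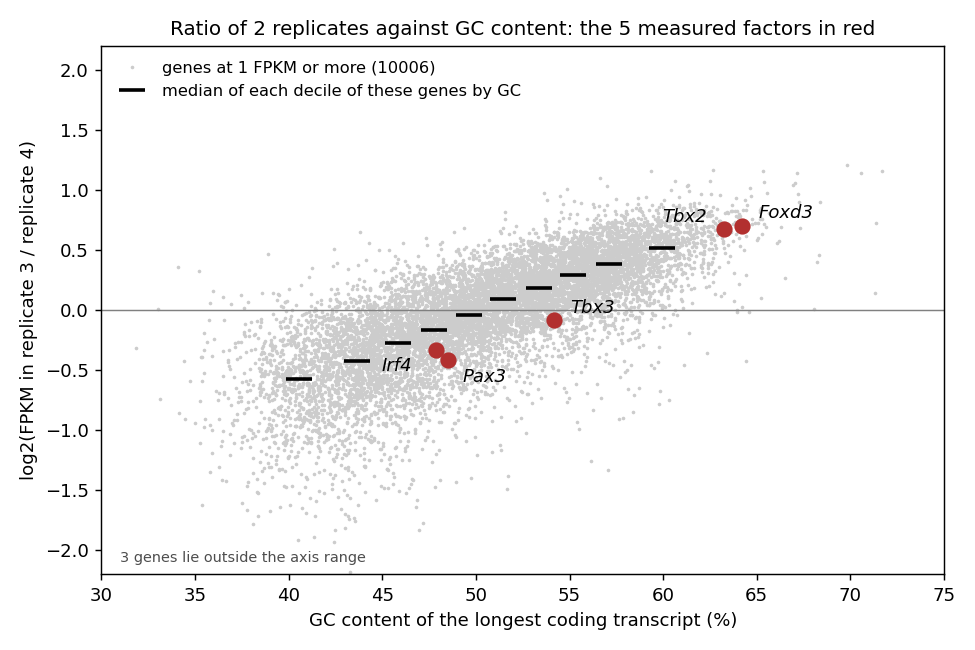
Log2 ratio of FPKM in replicate 3 to replicate 4 (vertical axis) against the GC content of the longest coding transcript in percent (horizontal axis), for 10006 genes above 1 FPKM in every replicate (grey) and the 5 factors (red); black bars are medians of deciles by GC and 3 genes lie outside the axis range. *Tbx2* at 0.67 and *Foxd3* at 0.70 are above 0 at the GC-rich side, and *Pax3*, *Irf4* and *Tbx3* are below 0.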

How the data were processed

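TruSeq stranded mRNA libraries were sequenced on the HiSeq 2000, in 3 lanes per bioreplicate. The authors trimmed the 10 5'-most bases of each read, aligned reads to mm9 with STAR 2.3.0e, removed rRNA reads and counted with HTSeq 0.5.3p3 on Ensembl release 67. The deposited values are FPKM with TMM-scaled libraries, rounded to 2 decimals, and the gene length behind them is not given in the sources used here. The order of genes and the ratios between them depend on that length. No count-based test was applied. Symbols, positions and exon lengths were taken from Ensembl release 65 for mm9. It covered all 10 factors and 22324 of 22698 genes. A gene counted as above 1 FPKM at 1 FPKM or more in every replicate. Scaled library sizes were the values at which FPKM times exon length gave whole reads in genes with 1 transcript of at most 600 bases (mean distance from a whole read 0.052 to 0.073). The method was tested on reads simulated with the same exon lengths. That could not test whether these lengths match those behind the deposited FPKM. Reads per gene are estimates from the merged exon length, which could not be checked for long genes with several transcripts (*Pax3*, *Tbx3*, *Irf4*, *Tbx15* and *Pax7*), and intervals cover counting error only. Levels were compared on log2(FPKM + 1) by an exact permutation test with Benjamini-Hochberg adjustment.

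The members and lists were chosen with earlier results of these data known. The lists of related genes and the factors hold 164 symbols, of which 4 matched through RefSeq synonyms. Named are the 10 factors, the 3 highest genes of each list, relatives above 1 FPKM and the nearest listed gene, and the others (among them *Mitf*, *Snai2*, *Tfap2a*, *Cdkn2a*, *Cdh1*, *Kit*, *Ret*, *Spi1*, *Batf*, *Ikzf1*, *Snap25* and the crest factors at 0) were chosen after their values were seen. Some genes that this rule names are not reported here. The software was Python 3.11.15, scipy 1.17.1 for the tests, statsmodels 0.14.6 for the adjustment, pandas 2.3.3, matplotlib 3.10.9 and numpy 2.4.6.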

Additional observations from a re-analysis of the deposited data

How the results depend on the processing

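The alternatives were another threshold, each replicate left out, the median over replicates and rescaled replicates. Other sets of genes for the ranks and a pseudocount of 0.1 were also used. The order of the 10 factors was the same in each replicate alone. It therefore could not change with the median, with rescaled values or without any 1 replicate, so these settings are no test of it. The number of factors above the threshold was 5 with each replicate left out, 7 at 0.1 FPKM and 3 at 5 FPKM, because *Tbx3* and *Irf4* lie between 1 and 5 FPKM. The FPKM summed to 358891 to 394507 per library, so rescaling to a total of 1000000 raised every value, as a lower threshold would. The median of the 10 levels then moved from 1.14 to 3.02 and 5 factors still passed. Genes above the threshold went from 1 to 2 in the PAX and FOXD families and from 0 to 2 among MSX and DLX genes. They went from 5 to 7 for IRF genes, 13 to 15 for crest factors and 11 to 12 for the reported targets. They also went from 14 to 15 for melanocyte genes, 4 to 5 for glial genes and 17 to 18 for genes of proteins that work with the factors. In the other lists they did not change. The share of all genes after rescaling is not given. With 1 replicate left out the median of the 10 levels was 1.09 to 1.17. The number of the 14 comparisons without overlap was then 13 to 14. It could not fall below 12, since fewer values can only narrow a range. The median coefficient of variation, an alternative added after seeing the data, was 7.07% to 20.4%, lowest without replicate 4. It then rests on fewer replicates, with no value for all genes beside it. *Foxd2* passes 1 FPKM without replicate 4. With a pseudocount of 0.1 the log2 difference between *Pax3* and *Pax7* was 8.27, and that between *Msx1* and *Msx2* was 1.73. Among genes above 0 in every replicate, 73.4% passed 1 FPKM. *Pax7* has no rank there, since replicate 3 lists it at 0. The depth and the rounding of FPKM to 2 decimals limit *Pax7* and *Msx2*, with 0 to 4 and 3 to 10 estimated reads. No paired analysis of groups was made, since there is 1 group of samples. The sign-flip test within libraries was added after seeing the data.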
